A study of Mus musculus with 38 samples.

Results

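The genes described here encode the hair keratin-associated proteins of the mouse and carry symbols that begin with Krtap. Symbols were matched in the 4 deposited tables of normalised counts, and 57 of the 49585 genes listed in each table matched. A mean of 10 or more over a table's libraries was required for testing. That left 56 of the 57 in whole skin of the Srsf2 knockout set, 47 in whole skin of the P95H set, and 1 in each of the 2 tables of sorted cells. In the knockout set the gene just inside this limit was Krtap20-2, with a mean of 15.3, and the gene outside it, Krtap13, was listed at 1 or 2 units in every library. In the P95H set Krtap19-1 (10.8) and Krtap19-4 (10.9) lay just inside and Krtap4-13 (9.91) and Krtap9-5 (9.63) just outside. The other genes outside it there were Krtap5-1, Krtap5-2, Krtap5-3, Krtap5-4, Krtap13, Krtap27-1, Krtap29-1 and Krtap31-2. All 56 tested members of the knockout set had a mean of at least 10 in the control group. In the P95H set 11 of the 47 reached that mean only in the 12-day controls, so counts over those 47 describe the genes that passed and not the whole family.

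Keratin-associated proteins form the matrix between the keratin intermediate filaments of the hair shaft, to which they are cross-linked through disulfide bonds. Their genes are expressed late in the differentiation of hair cortex and cuticle cells, in follicles in the growth phase of the hair cycle (anagen), and resting follicles make little of them. By amino acid content they fall into high-sulfur, ultrahigh-sulfur and high glycine-tyrosine classes. The number after Krtap names the subfamily, and 27 subfamilies were present. From textbook knowledge, subfamilies 1, 2, 3, 10 to 15, 24, 26 and 27 were placed among the high-sulfur proteins, 4, 5, 9 and 17 among the ultrahigh-sulfur proteins, and 6, 7, 8 and 19 to 22 among the high glycine-tyrosine proteins. Subfamilies 16, 28, 29 and 31 were left without a class.

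The study followed mouse back skin after deletion of Srsf2, a serine and arginine rich splicing factor, or after expression of its P95H mutant, with Krt14-CreER, a tamoxifen-inducible Cre recombinase driven from a promoter of basal epidermal and outer root sheath keratinocytes. In the knockout set, skin was painted every other day with 4-hydroxy tamoxifen, and Cre-positive Srsf2 knockout skin was taken at 4, 10 and 12 days, with 3 libraries each. Its 3 controls carried the same Srsf2 allele without Cre, received tamoxifen too, and were taken at 12 days (replicates 1 and 2) and 10 days (replicate 3). No control was taken at 4 days. The number of tdTomato reporter alleles varied within that set: it was heterozygous, homozygous and wild type in controls 1, 2 and 3, homozygous, wild type and homozygous at 4 days, homozygous, wild type and heterozygous at 10 days, and heterozygous in each library at 12 days. The P95H set, wild type for tdTomato, held 5 Cre-negative controls and 2 P95H libraries at 12 days and 3 Cre-negative controls (replicate numbers 1, 2 and 4) and 4 P95H libraries at 28 days, with the same tamoxifen treatment. Reporter-positive cells sorted from back skin came from 3 controls and 3 knockouts at 10 days of 4-hydroxy tamoxifen, and from 3 controls and 3 heterozygous P95H mice at 20 weeks, after 3 tamoxifen injections and DMBA/TPA, the classic carcinogen and tumour promoter treatment of skin. The Cre status of the sorted controls and the ages of the mice were not stated in the labels. Libraries are labelled as biological replicates. Where nothing says that they came from separate mice, p-values measure only the spread between these samples.

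The whole-skin values are given in steps, a step being the unit of which each value in a library is a whole multiple (100% of values, tolerance 0.0001). Whole-skin libraries held 28515245 to 37528050 steps in the knockout set and 16100013 to 17388749 in the P95H set. Sorted libraries held 45930438 to 92761588 reads in the knockout set and 10977763 to 17239256 after DMBA/TPA. In whole skin most undetected genes stood at 1 step, and a value of 0 was rarer than a value of 1. Krtap genes made up 12 of the 22 genes listed at 0 in knockout replicate 1 at 4 days and 14 of the 40 in knockout replicate 1 at 12 days. The labels do not say how these low values arose, so 0, 1 and 2 steps are not told apart below. Several libraries stood apart from their group in Krtap level: control replicate 2 of the knockout set lay far below the other 2 controls, knockout replicate 2 at 12 days far above the other 2 at that time, and the 12-day controls of the P95H set spread over a range of 212 to 20558 summed Krtap steps. Srsf2 in whole skin, where cells outside the Krt14 lineage contribute RNA, stood at 2885, 2879 and 2996 steps in the controls, 2450, 2790 and 2671 at 4 days, 2996, 3084 and 3687 at 10 days and 2303, 2559 and 2382 at 12 days. In sorted cells it stood at normalised counts of 17560, 18190 and 20595 in the controls against 3659, 3359 and 1900 in the knockouts. In bulk tissue, fewer cells of a type and less RNA per cell cannot be told apart.

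The 57 genes lay in 5 clusters (GENCODE M21, GRCm38, used for positions only, since the labels do not name the build of the deposited counts). A cluster of 23 on chromosome 11, chr11:99550130-99993994, held subfamilies 1, 2, 3, 4, 9, 17, 29 and 31 and Krtap16-1, and a cluster of 25 on chromosome 16, chr16:88610705-89571183, held the high glycine-tyrosine genes together with subfamilies 11, 13, 14, 15, 24, 26 and 27 and Krtap16-3. The 5 Krtap5 genes lay at chr7:142174535-142304594, Krtap10-4 and Krtap12-1 at chr10:77720599-77827095, and the 2 Krtap28 genes at chr1:83041524-83061921. Most are small genes without introns: 54 of 57 were a single exon block, with a median of 879 exon bases. Sequence identity between neighbours limits how far reads can be assigned. In 14 members over 20% of the 50-base words of the transcript also occur in other genes (81.3% in Krtap4-13, 54.3% in Krtap5-1, 43.8% in Krtap2-4, 42.0% in Krtap10-4, 41.5% in Krtap31-2, 41.3% in Krtap3-3 and 39.5% in Krtap31-1), and their values are uncertain to that extent. Krtap7-1, Krtap8-1, Krtap11-1, Krtap16-1, Krtap17-1 and Krtap9-5 are among the 15 that share none. Krtap15 overlaps 4930553J12Rik by 201 exon bases and Krtap24-1 overlaps the antisense gene Gm49688 by 150. Whether counting used strand is not given, so reads of those pairs cannot be told apart. Krtap19-9a, of 166 exon bases, is annotated as a processed pseudogene.

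RefSeq promoter sequences (GRCm38.p6) were present for 51 of the 57 genes. The next 5 show the 60 bases before the start of members that the results below turn on, on the gene's strand, with each TATAAA in capitals. They are Krtap8-1 (chr16:89487953-89488012, minus strand) and Krtap11-1 (chr16:89571184-89571243, minus), which were among the most abundant at 10 days, Krtap1-5 (chr11:99581017-99581076, minus), with the highest single library among the 12-day controls of the P95H set, Krtap5-2 (chr7:142176006-142176065, minus), with the largest rise at 10 days, and Krtap3-2 (chr11:99556854-99556913, minus), the member with most steps in control 2 of the knockout set and at 28 days in the P95H set.
Krtap8-1: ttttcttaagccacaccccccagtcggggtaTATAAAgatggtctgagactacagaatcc
Krtap11-1: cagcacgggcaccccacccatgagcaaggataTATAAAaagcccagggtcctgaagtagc
Krtap1-5: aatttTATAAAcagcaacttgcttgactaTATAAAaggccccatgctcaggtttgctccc
Krtap5-2: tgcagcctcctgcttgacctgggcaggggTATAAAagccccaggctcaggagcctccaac
Krtap3-2: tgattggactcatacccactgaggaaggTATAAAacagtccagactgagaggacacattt
TATAAA on the gene's strand between 45 and 11 bases before the start was found in 32 of the 51 Krtap promoters (62.7%) and in 730 of all 32851 promoters in the table (2.22%). Over 300 bases and both strands it was found in 82.4% of Krtap promoters and 13.6% of all promoters. CTTTGA, the core word bound by LEF1 and TCF factors, was found on either strand in 15 of 51 (29.4%) against 16% of all promoters, and the longer CTTTGAAGA, which contains it, in 4 of 51 (7.84%) against 0.490%. A match describes the letters in this window and not a bound site.

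A further 3 promoters on chromosome 11 share 23 bases, set in capitals below, that end 38 bases before the RefSeq start. They are shown because these genes also shared a pattern across libraries, given further on. The windows are chr11:99907860-99907919 for Krtap31-1, chr11:99936231-99936290 for Krtap31-2 and chr11:99948364-99948423 for Krtap9-5, each on the plus strand.
Krtap31-1: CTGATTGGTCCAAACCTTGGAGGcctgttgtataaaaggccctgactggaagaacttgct
Krtap31-2: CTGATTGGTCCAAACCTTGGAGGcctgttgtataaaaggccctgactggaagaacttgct
Krtap9-5: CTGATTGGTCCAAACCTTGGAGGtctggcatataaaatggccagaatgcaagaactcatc
Krtap31-1 and Krtap31-2 are identical over these 60 bases and over 82.3% of the 300 bases held, while Krtap9-5 matches Krtap31-1 at 47 of the 60. The run of 23 was found in 4 of the 32851 promoters (0.0122%). The fourth belongs to Gm11565, which lies between Krtap31-1 and Krtap31-2 (chr11:99914751-99915671, plus) and carries no Krtap symbol.

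As a family, Krtap transcripts ranged over 4 orders of magnitude between whole-skin libraries of the knockout set. They made up 0.138%, 0.00264% and 0.148% of all steps in control replicates 1, 2 and 3, and 2.56%, 1.80% and 3.25% in knockout skin at 10 days. At 4 days the shares were 0.000699%, 0.00598% and 0.00427%, and at 12 days 0.000292%, 0.0332% and 0.00255%. The 10-day libraries lay above all others, with no overlap. As means the shares were 0.0965% ± 0.0814 in controls, 0.00365% ± 0.00269 at 4 days, 2.54% ± 0.725 at 10 days and 0.0120% ± 0.0184 at 12 days (SD, n = 3 each). Summed Krtap steps at 10 days were 15.4 to 28.8 times those of the one control taken at 10 days (replicate 3), 15.6 to 29.2 times those of control 1 and 853 to 1595 times those of control 2. The size of the difference therefore depends on which control is taken. In the P95H set the shares stayed between 0.000657% and 0.127%, and in sorted cells no library exceeded 0.000468%.

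**Figure D1:**
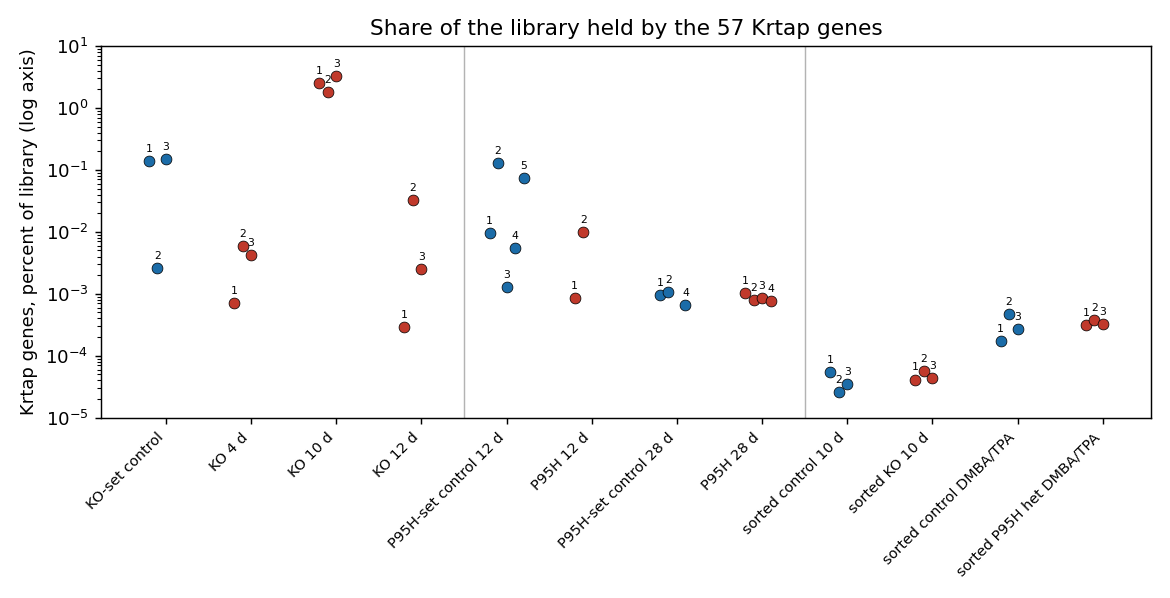
Summed Krtap steps or reads as a percent of each library (log axis), by group, with controls in blue and knockout or P95H libraries in red, and the replicate number beside each point. The 3 knockout libraries at 10 days lie at 1.80% to 3.25%, above every other library, while the controls of the knockout set span 0.00264% to 0.148% and sorted cells lie at or below 0.000468%.

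The first question was how Krtap genes differed between knockout and control skin at 10 days. Of the 56 tested, 51 rose and none fell, with a median log2 difference of 6.21 (range 1.41 to 8.75), against a median of -0.02 over all 19492 genes tested (limma with Benjamini-Hochberg adjustment over all genes, differences on the scale of log2(steps + 1), threshold 0.05). Over all genes, 25.3% were called in either direction, 13.4% higher and 11.9% lower. In 55 of the 56 the 3 knockout libraries lay above all 3 controls, an arrangement that 22.1% of all genes showed. The count rests on few libraries: without control 2 it was 8, with a median of 4.33, and without knockout replicates 1, 2 or 3 it was 24, 22 and 17. The 5 members not called were Krtap6-1, Krtap6-2, Krtap20-2, Krtap21-1 and Krtap31-1. By class, 12 of 16 high glycine-tyrosine genes rose (median 6.50), 16 of 16 high-sulfur genes (median 6.33), 17 of 17 ultrahigh-sulfur genes (median 6.05) and 6 of 7 without a class (median 5.93). By position, 22 of 23 rose on chromosome 11 (median 6.05) and 20 of 24 on chromosome 16 (median 6.59), with all 5 on chromosome 7 (median 6.42) and both genes on chromosomes 10 and 1.

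**Figure D2:**
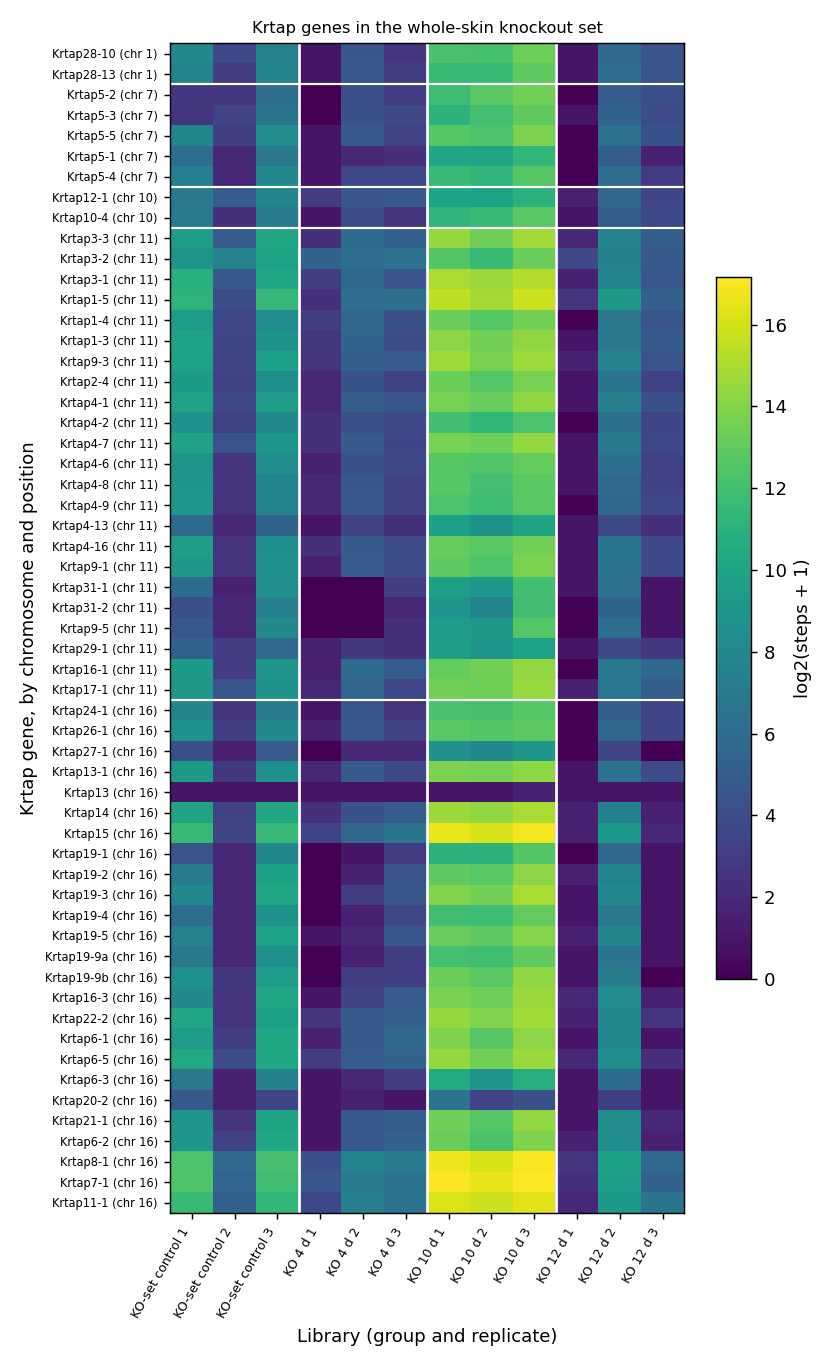
Level of each of the 57 Krtap genes (rows, ordered by chromosome and position) in the 12 whole-skin libraries of the knockout set (columns), as log2(steps + 1). The 3 knockout columns at 10 days are high in nearly every row, controls 1 and 3 and knockout replicate 2 at 12 days are intermediate, and Krtap13 and Krtap20-2 stay low throughout.

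The high glycine-tyrosine proteins are small proteins of the hair cortex, and their genes included the most abundant members. Krtap7-1 stood at 5603, 48 and 3769 steps in controls 1, 2 and 3, at 23, 138 and 92 in knockout skin at 4 days, at 139338, 97362 and 146323 at 10 days and at 4, 790 and 39 at 12 days. Its means were 3140 ± 2830 in controls and 127674 ± 26483 at 10 days (SD, n = 3), a difference of 6.96 (SE 1.88, limma adjusted p = 0.0227). Krtap8-1 stood at 5005, 58 and 4418 in controls, 17, 200 and 128 at 4 days, 106636, 72255 and 132314 at 10 days and 5, 870 and 56 at 12 days, and rose by 6.53 at 10 days against controls (SE 1.88, adjusted p = 0.0287). In both genes the 10-day libraries were highest and controls 1 and 3 came next, and control 2 lay within the range of the 4-day and 12-day knockouts. Krtap22-2 stood at 1074, 5 and 842, then 5, 28 and 37, then 21938, 15305 and 28567, and finally 2, 241 and 5 in the same order of groups (rise of 6.92, SE 1.94, adjusted p = 0.0258). Krtap6-5 followed with 1396, 16 and 1266 in controls, 7, 29 and 44 at 4 days, 21848, 11661 and 24831 at 10 days and 3, 344 and 4 at 12 days (rise of 5.89, SE 1.84, adjusted p = 0.0375). In these 2 genes as well, no 10-day library overlapped a control.

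Subfamily 19, the largest of this class with 7 genes that passed, rose in 7 of 7 with a median of 6.80. Krtap19-3, its most abundant member, stood at 295, 3 and 1138 steps in controls, 0, 7 and 23 at 4 days, 15508, 12069 and 32162 at 10 days and 1, 262 and 1 at 12 days (rise of 7.36, SE 2.20, adjusted p = 0.0324). Control 3 was the highest control here, unlike in Krtap7-1. Krtap21-1 and Krtap20-2 are the members of this class whose calls missed the threshold most visibly in opposite ways. Krtap21-1 stood at 502, 5 and 1044 in controls, 1, 26 and 32 at 4 days, 11068, 6231 and 21365 at 10 days and 1, 347 and 3 at 12 days, with groups that did not overlap and a difference of 6.28 (SE 2.14, adjusted p = 0.0514). Krtap20-2 was the one member whose 10-day libraries overlapped the controls: 28, 2 and 11 steps in controls, 1, 2 and 1 at 4 days, 93, 10 and 18 at 10 days and 1, 8 and 1 at 12 days (difference 1.41, SE 0.94, adjusted p = 0.289). In subfamily 6, 2 of 4 rose, and Krtap6-1 (difference 5.94, adjusted p = 0.0574) and Krtap6-2 (5.56, adjusted p = 0.0663) did not pass, although their groups did not overlap.

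All 16 high-sulfur genes tested rose. Krtap15 stood at 3131, 11 and 3206 steps in controls, 10, 50 and 95 at 4 days, 100937, 69863 and 116357 at 10 days and 2, 558 and 3 at 12 days (rise of 7.57, SE 2.24, adjusted p = 0.0315), the largest rise of this class. Krtap11-1 stood at 3162, 39 and 2667 in controls, 12, 176 and 90 at 4 days, 75219, 58977 and 83820 at 10 days and 3, 615 and 95 at 12 days (rise of 6.69, SE 1.89, adjusted p = 0.0266). Knockout replicate 3 at 12 days differed between these genes, with 3 steps of Krtap15 and 95 of Krtap11-1. Krtap1-5 stood at 2254, 16 and 2798, then 4, 74 and 80, then 46567, 29611 and 60172, then 5, 627 and 37 (rise of 6.52, SE 2.02, adjusted p = 0.0365). Krtap3-1 stood at 1927, 28 and 1080, then 8, 54 and 22, then 32318, 24497 and 36717, then 2, 201 and 24 (rise of 6.29, SE 1.61, adjusted p = 0.0188). Krtap14 stood at 1030, 9 and 1255, then 4, 19 and 31, then 24904, 20354 and 32941, then 2, 188 and 2 (rise of 6.77, SE 1.87, adjusted p = 0.0248). In all 3 the 10-day libraries were more than 10 times the highest control.

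Among the less abundant high-sulfur genes, Krtap13-1 stood at 655, 6 and 388 steps in controls, 3, 27 and 12 at 4 days, 14125, 12493 and 19200 at 10 days and 1, 83 and 14 at 12 days (rise of 6.95, SE 1.63). Krtap2-4 stood at 639, 9 and 370, then 3, 19 and 9, then 9963, 6476 and 12900, then 1, 98 and 9 (rise of 6.14, SE 1.55). Krtap26-1 stood at 441, 8 and 284, then 2, 24 and 9, then 7080, 5930 and 7590, then 0, 49 and 11 (rise of 6.03, SE 1.54). These had limma adjusted p-values of 0.0137, 0.018 and 0.0188 and were alike in that control 1 exceeded control 3. Krtap24-1 stood at 220, 5 and 128, then 1, 23 and 5, then 4858, 4608 and 6611, then 0, 36 and 11 (rise of 6.57, adjusted p = 0.0122). Krtap10-4 stood at 138, 4 and 139, then 1, 16 and 5, then 2404, 3159 and 7118, then 1, 35 and 13 (rise of 6.36, adjusted p = 0.0100). Krtap10 transcripts are known from the hair cuticle. Krtap27-1 stood at 17, 2 and 30, then 0, 3 and 3, then 406, 285 and 541, then 0, 11 and 0 (rise of 5.07, adjusted p = 0.00921).

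The smallest rises within the high-sulfur class belonged to 2 genes in which control 2 lay nearer to controls 1 and 3. Krtap12-1 stood at 114, 29 and 221 steps in controls, 7, 21 and 26 at 4 days, 1030, 955 and 2112 at 10 days and 2, 50 and 11 at 12 days (rise of 3.80, SE 0.96, adjusted p = 0.0179). Krtap3-2, named after its values were seen, stood at 462, 191 and 1003 in controls, 45, 71 and 87 at 4 days, 6086, 3214 and 9592 at 10 days and 13, 185 and 27 at 12 days (rise of 3.68, SE 0.85, adjusted p = 0.0131). With 191 steps it was the Krtap gene with most steps in control 2, where Krtap7-1 had 48. Its 10-day mean of 6297 ± 3194 lay above the control mean of 552 ± 413 (SD, n = 3).

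The ultrahigh-sulfur genes rose in 17 of 17, and the 2 largest rises of the whole family were in subfamily 5, which is known from the hair cuticle. Krtap5-2 (chr7:142174535-142176005) stood at 6, 6 and 72 steps in controls, 0, 17 and 7 at 4 days, 3438, 7035 and 11786 at 10 days and 0, 31 and 17 at 12 days, with means of 28.0 ± 38.1 in controls and 7420 ± 4187 at 10 days (SD, n = 3). Its rise was 8.75 (SE 1.40, adjusted p = 0.00427). Krtap5-3 (chr7:142201364-142203015) stood at 5, 10 and 95 in controls, 0, 19 and 12 at 4 days, 2171, 4137 and 8133 at 10 days and 1, 41 and 15 at 12 days (rise of 7.82, SE 1.38, adjusted p = 0.00565). In both, control 1 was as low as control 2, whereas in most other members control 1 was several times higher than control 2. The third gene of this cluster shown here, Krtap5-5, stood at 238, 8 and 344, then 1, 25 and 10, then 6313, 5372 and 13766, then 0, 87 and 19 (rise of 6.42, SE 1.67, adjusted p = 0.0199). In Krtap5-2 28.7% of the 50-base words are shared with other genes.

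The other ultrahigh-sulfur subfamilies were more abundant in controls 1 and 3. Krtap9-3 stood at 994, 10 and 819 steps in controls, 5, 35 and 30 at 4 days, 26619, 12931 and 25102 at 10 days and 2, 195 and 21 at 12 days (rise of 6.63, SE 1.72, adjusted p = 0.0202). Krtap4-7 stood at 950, 20 and 544, then 4, 27 and 11, then 13311, 10737 and 21206, then 1, 122 and 12 (rise of 6.03, SE 1.52, adjusted p = 0.0179), and all 8 of subfamily 4 rose, with a median of 6.04. Krtap17-1 stood at 568, 21 and 453, then 3, 47 and 12, then 11842, 10645 and 22931, then 2, 107 and 32 (rise of 6.32, SE 1.44, adjusted p = 0.0126). None of these 3 showed overlap between 10-day and control libraries.

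Of the subfamilies without a class, Krtap16-3 stood at 279, 5 and 1097 steps in controls, 1, 9 and 30 at 4 days, 13329, 10478 and 24378 at 10 days and 3, 321 and 2 at 12 days (rise of 6.94, adjusted p = 0.0289). Krtap16-1, named after its values were seen, shares its subfamily number but lies on chromosome 11 rather than 16. It stood at 642, 7 and 497, then 2, 62 and 31, then 8857, 11405 and 20832, then 0, 122 and 54 (rise of 6.55, SE 1.95, adjusted p = 0.0325), so that control 1 exceeded control 3 in Krtap16-1 and lay below it in Krtap16-3. Krtap28-10 stood at 288, 13 and 194, then 1, 22 and 5, then 4884, 4495 and 10422, then 1, 58 and 20 (rise of 6.05, SE 1.36, adjusted p = 0.0121). Krtap29-1 stood at 40, 7 and 57, then 2, 6 and 4, then 734, 509 and 1003, then 1, 13 and 6 (rise of 4.76, SE 0.78, adjusted p = 0.00451). Krtap31-1 stood at 65, 2 and 386, then 0, 0 and 8, then 867, 576 and 3955, then 1, 89 and 1, and its difference of 4.89 did not pass (SE 1.83, adjusted p = 0.0709). Its groups did not overlap, but control 3 came close to knockout replicate 2.

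**Figure D3:**
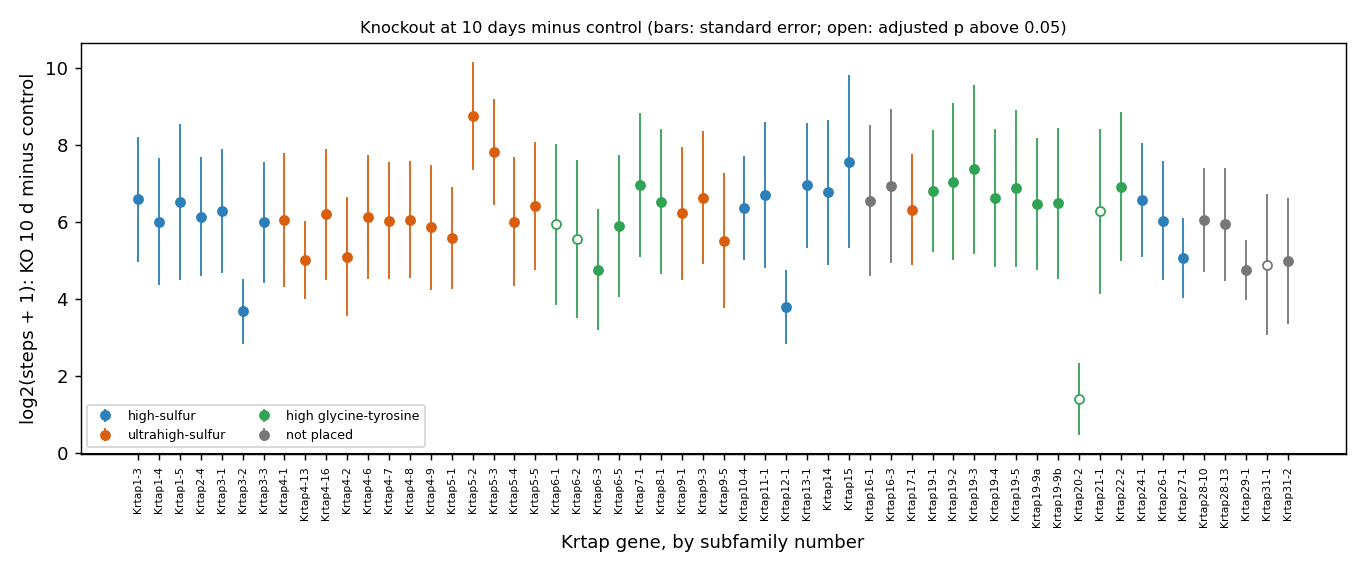
Log2 difference in steps + 1 between knockout at 10 days and control whole skin for the 56 tested Krtap genes, grouped by subfamily and coloured by class, with the limma standard error as bars. Filled points are the 51 genes with an adjusted p under 0.05 and open points the other 5. Krtap5-2 and Krtap5-3 lie highest (8.75 and 7.82) and Krtap20-2 lowest (1.41).

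Levels can be compared between genes only per length. In knockout skin at 10 days Krtap7-1 had 205595 ± 42645 steps per kilobase of exon, Krtap8-1 180723 ± 52499, Krtap15 90988 ± 22512 and Krtap11-1 72095 ± 12516 (SD, n = 3 each). Krtap22-2 (60100 ± 18167), Krtap3-1 (51618 ± 10247), Krtap1-5 (43660 ± 14708) and Krtap19-3 (37857 ± 20430) came next. The top 2 genes held 29.8% and the top 6 held 51.0% of the family total per kilobase, and the lowest 10 together held less than 1%. At the low end stood Krtap27-1 (636 ± 198), Krtap20-2 (75.5 ± 85.7) and Krtap13 (1.49, at the floor). Of the 56 pairs of neighbours in this order, 53 had overlapping ranges over the 3 libraries. All genes were measured in the same 3 libraries, so overlapping ranges do not show whether an order held within each library. Krtap15, for example, exceeded Krtap11-1 in each of the 3 although their ranges overlapped. Among 10-day libraries, replicate 3 was highest for 54 of the 56 tested members.

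At the other times the family was low in knockout skin. At 4 days all 56 differences from control were negative, with a median of -3.51 (range -4.91 to -1.54), against -0.01 over all genes. None passed the test (limma, Benjamini-Hochberg; lowest adjusted p 0.0596; 20 members had an unadjusted p under 0.05), while 4.11% of all genes were called lower, 7.16% higher and 11.3% in either direction. The groups did not overlap in 3 members, Krtap3-2, Krtap12-1 and Krtap29-1, each lower at 4 days, an arrangement found in 13.4% of all genes. The 4-day knockouts lay below controls 1 and 3 and on both sides of control 2 in most of the other members named above. Without control 2, 31 members were called lower and the median was -5.42, and edgeR on the steps called 12. The shares of all genes called in those settings are not given here. At 12 days all 56 differences were negative again, with a median of -3.08 (range -4.71 to -0.75) against 0.00 over all genes. None passed, 12 had an unadjusted p under 0.05, and 1.28% of all genes were called, 0.826% higher and 0.457% lower. Krtap3-2, with 13, 185 and 27 steps against 462, 191 and 1003, was the one member whose groups did not overlap (adjusted p = 0.0712; 10.8% of all genes did not overlap in this direction). Without knockout replicate 2 at 12 days, 1 member was called. The 3 comparisons with control share the same 3 control libraries.

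Between knockout times the differences were larger than the spread for the whole tested family. All 56 were higher at 10 than at 4 days, with a median of 9.69 (range 3.56 to 11.62), where 40.2% of all genes were called and 18.9% were called higher. The 3 largest were in subfamily 19: Krtap19-3 at 11.62 (SE 2.20, adjusted p = 0.00169), Krtap19-9b at 11.40 (SE 1.96, adjusted p = 0.000996) and Krtap19-2 at 11.30 (SE 2.04, adjusted p = 0.00129). Krtap19-9b stood at 390, 6 and 716 steps in controls, 0, 7 and 8 at 4 days, 10031, 7111 and 19745 at 10 days and 1, 149 and 0 at 12 days. Krtap19-2 stood at 125, 3 and 886, then 0, 2 and 20, then 8097, 6863 and 18277, then 2, 209 and 1. Folds against 4 days start from values at or near the floor in replicate 1, and for Krtap19-2 in replicate 2 as well. Krtap20-2 showed the smallest difference, 3.56 (SE 0.94, adjusted p = 0.0110). All 56 were lower at 12 than at 10 days, with a median of -9.35 (range -12.28 to -3.03), where 37.5% of all genes were called and 18.4% were called lower. The largest falls were those of Krtap15 (-12.28, SE 2.24, adjusted p = 0.00216), Krtap7-1 (-11.18, SE 1.88, adjusted p = 0.00146) and Krtap14 (-11.06, SE 1.87, adjusted p = 0.00151). These falls end at or near the floor in replicate 1 at 12 days, and for Krtap15 and Krtap14 in replicate 3 as well. Their sizes and order depend on such values. Both comparisons share the 10-day libraries, and all groups come from different skin samples. Leaving out any one library left 56 called between 10 and 4 days and 55 or 56 between 12 and 10 days.

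What was left of the family at 12 days differed in its classes between libraries. In knockout replicate 3 the high glycine-tyrosine genes had a median of 1 step and 2 of 16 exceeded 5 steps. In the same library the high-sulfur genes had a median of 13 with 13 of 17 above 5, and the ultrahigh-sulfur genes a median of 12 with 14 of 17. Seen by position, 6 of 25 genes on chromosome 16 and 19 of 23 on chromosome 11 exceeded 5 steps there. In replicate 2 the high glycine-tyrosine genes were instead highest, with a median of 232.5 steps against 111 for high-sulfur and 78 for ultrahigh-sulfur genes. In replicate 1 each of these classes had a median of 1 step. The place of the high glycine-tyrosine genes among the classes thus differed between 2 libraries of the same label, and no test was made of it.

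Composition was described in the 12 libraries with at least 1000 Krtap steps, 8 of 12 in the knockout set and 4 of 14 in the P95H set, as each subfamily's percent of the family total per kilobase. The high glycine-tyrosine class held 54.0%, 52.8% and 54.1% in the 3 knockout libraries at 10 days, 50.5% and 57.4% in controls 1 and 3, and 40.0% and 52.3% in knockout replicates 2 and 3 at 4 days. It held 58.3% in knockout replicate 2 at 12 days. Summed Krtap steps at 10 days were thus 15.4 to 29.2 times those of controls 1 and 3, while this share lay between theirs. Subfamily 19 varied between libraries of 1 group, with 5.20% in control 1 against 18.6% in control 3, 2.64% against 12.7% in knockout replicates 2 and 3 at 4 days, and 9.79%, 11.6% and 14.9% at 10 days. In the P95H set the cluster on chromosome 11 held 34.1% to 44.5% of the total, against 22.9% to 24.2% at 10 days, 23.7% and 31.1% in controls 3 and 1, 37.6% and 26.9% in replicates 2 and 3 at 4 days and 23.5% in replicate 2 at 12 days of the knockout set, so that the sets overlapped in 1 knockout library. Subfamily 4 held 10.2% to 18.1% in the P95H set against 4.51% to 8.43% in the knockout set, without overlap. The 2 sets were made with different library kits, so kit and mouse set cannot be told apart in these shares.

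**Figure D4:**
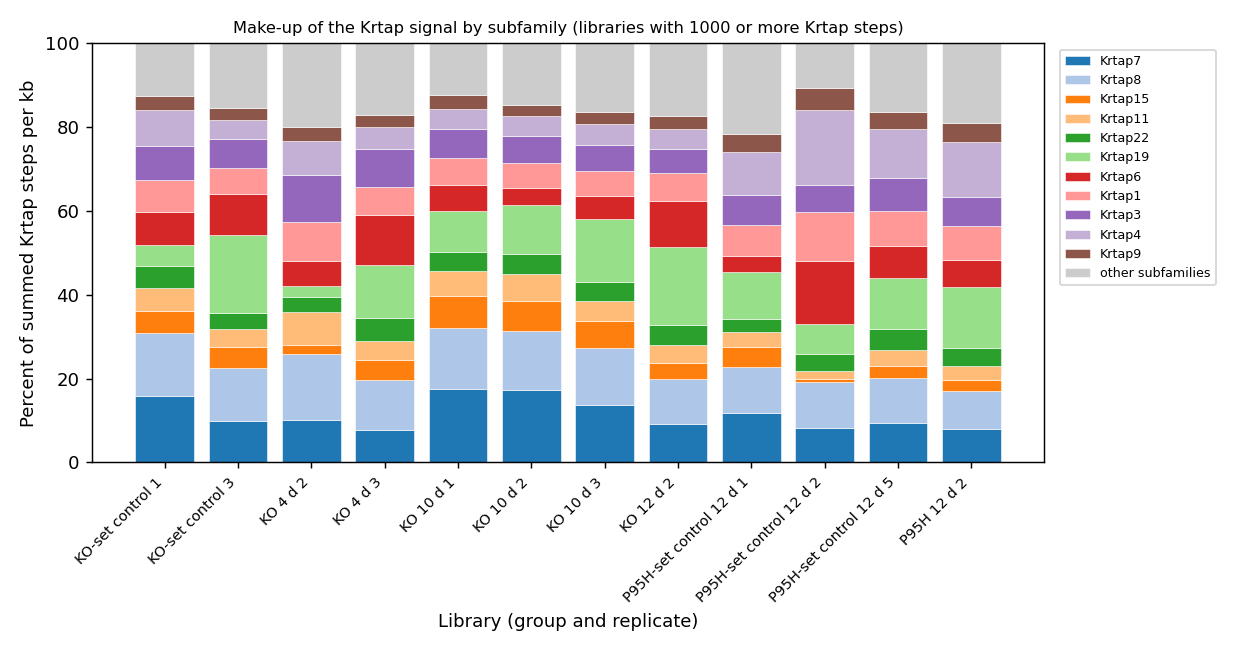
Share of each subfamily in the summed Krtap steps per kilobase (percent), stacked, in the 12 whole-skin libraries with at least 1000 Krtap steps. Subfamilies 7, 8 and 19 are the widest bands in the 10-day knockout libraries, subfamily 19 is wide in control 3 (18.6%) and narrow in control 1 (5.20%), and subfamily 4 is wider in the 4 libraries of the P95H set (10.2% to 18.1%) than in the other 8.

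Members did not vary in parallel within a group. Between control 3 and control 1, taken at 10 and 12 days and with like family totals (42295 and 41744 steps), the log2 ratio over the 56 genes had a median of 0.03 but ran from -1.49 to 4.00. All 7 genes of subfamily 19 were higher in control 3 (median 2.31, range 0.87 to 3.46), as were all 5 of subfamily 5 (median 0.69), and all 8 of subfamily 4 were lower (median -0.74). Between knockout replicates 3 and 1 at 10 days, both of 1 label, the median was 0.54, with 1.05 in subfamily 19, 1.19 in subfamily 5 and 0.44 in subfamily 4. Across the 56 genes the control ratio and this knockout ratio had a Pearson r of 0.71 and a Spearman rho of 0.63, and against the ratio of knockout replicates 3 and 2 an r of 0.57 and a rho of 0.63. These are descriptions across genes, which share libraries, clusters and sequence. Of 12 pairs of such ratios computed, r ran from -0.68 to 0.71.

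The genes with the shared 23-base run were high in both ratios. Krtap31-2 stood at 17, 3 and 175 steps in controls, 0, 0 and 3 at 4 days, 484, 217 and 3805 at 10 days and 0, 45 and 1 at 12 days, and it rose by 4.98 at 10 days against controls (SE 1.63, limma adjusted p = 0.0444). Krtap9-5 stood at 26, 3 and 266, then 0, 0 and 4, then 730, 588 and 6362, then 0, 70 and 1 (rise of 5.51, SE 1.75, adjusted p = 0.0399). In both, control 3 and knockout replicate 3 at 10 days were several times higher than the other libraries of their groups. Gm11565 stood at 138, 3 and 561, then 0, 1 and 11, then 2063, 1687 and 8367, then 1, 136 and 3. The log2 ratio of control 3 to control 1 was 2.55 in Krtap31-1, 3.29 in Krtap31-2, 3.31 in Krtap9-5 and 2.02 in Gm11565. That of knockout replicate 3 to replicate 1 at 10 days was 2.19, 2.97, 3.12 and 2.02 in the same order, and that of replicate 3 to replicate 2 was 2.78, 4.13, 3.43 and 2.31. Of 19492 tested genes, 4 (0.0205%) were at or above the smallest of these values in all 3 ratios, and they were these 4. That limit was set by the 4 genes themselves after their values were seen. Krtap31-1, Krtap31-2 and Gm11565 also share 50-base words, so their reads are not fully separable, while Krtap9-5 shares none. Members without the run differed among themselves. Krtap9-3, of the same subfamily as Krtap9-5, stood at 994 and 819 in controls 1 and 3 and at 26619, 12931 and 25102 at 10 days, without such an excess. Krtap5-3, Krtap19-1 and Krtap5-2 had ratios of control 3 to control 1 of 4.00, 3.46 and 3.38. Their ratios of knockout replicate 3 to replicate 1 were 1.90, 1.59 and 1.78. Whether the run bears on this pattern was not tested.

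**Figure D5:**
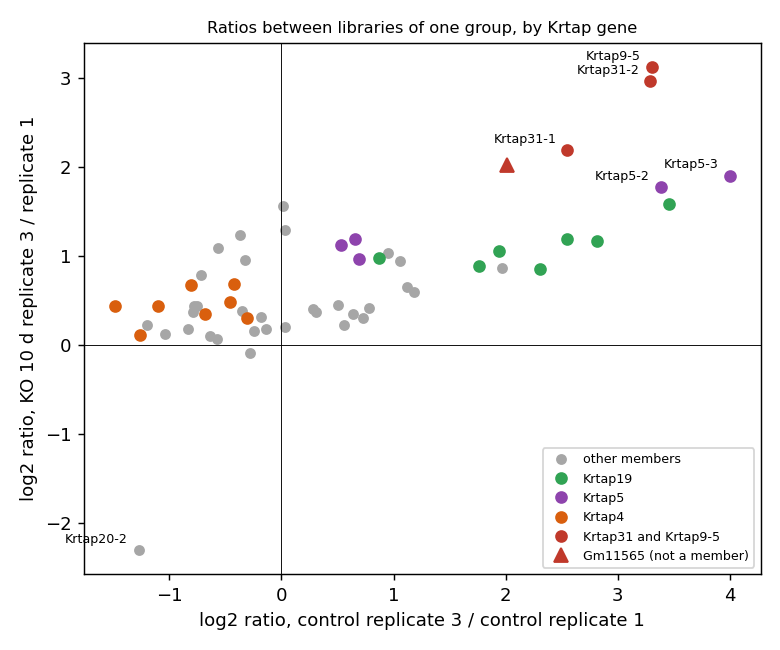
Each point is 1 of the 56 Krtap genes, with the log2 ratio of control 3 to control 1 on the x axis and of knockout replicates 3 to 1 at 10 days on the y axis, with Gm11565 as a triangle. Krtap9-5 and Krtap31-2 lie at the upper right (3.31, 3.12 and 3.29, 2.97), subfamily 19 (green) lies right of 0, and subfamily 4 (orange) left of it.

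In skin with the P95H mutant at 12 days, 1 Krtap gene of the 47 tested fell and none rose. Krtap12-1 stood at 20, 36, 21, 18 and 87 steps in the 5 controls and at 1 and 11 in the 2 P95H libraries, which lay below every control, and fell by 2.66 on the log2 scale (SE 0.68, limma adjusted p = 0.0306). Over all 18486 genes 6.89% were called in either direction, 3.94% higher and 2.95% lower, and in 14% the P95H libraries lay below every control. The call was lost without control 2 or without P95H replicate 1, and edgeR on the steps called none. All 47 differences were negative, with a median of -1.97 against -0.00 over all genes, and 2 had an unadjusted p under 0.05. Since 11 of the 47 passed the filter only through the 12-day controls, the filter favours a negative sign, and the shared sign is given as description. Tested on the deposited normalised counts, 18 were called lower, but the share of all genes called in that setting is not given here. The abundant genes spread widely between controls. Krtap7-1 stood at 149, 1403, 11, 48 and 953 against 2 and 112 (difference -3.15, SE 1.54, adjusted p = 0.247), and Krtap8-1 at 131, 1717, 14, 62 and 1018 against 4 and 117 (-2.93, adjusted p = 0.255). Krtap1-5 stood at 87, 2713, 5, 43 and 713 against 2 and 77 (-3.14, SE 1.72, adjusted p = 0.308). In these 3 the P95H libraries lay within the range of the controls or below it, and replicate 3 was the lowest control. Krtap17-1 stood at 27, 120, 8, 21 and 139 against 2 and 24 (-2.18, SE 0.99, adjusted p = 0.209). Krtap20-2, low in the knockout set, stood at 1, 185, 1, 1 and 10 in the controls and at 1 and 4 in P95H skin. The shared-run genes Krtap31-1 (2, 97, 2, 4 and 42), Krtap31-2 (4, 46, 2, 4 and 25) and Krtap9-5 (6, 46, 2, 5 and 32) were highest in controls 2 and 5. So were Krtap7-1, Krtap8-1, Krtap1-5 and Krtap17-1, and these controls had the highest family totals (20558 and 12023 steps).

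At 28 days the family was near the floor in all 7 libraries of the P95H set, with 107 to 178 summed steps. Of the 47 tested genes, 45 never exceeded 10 steps at that time. No gene was called between P95H and control (median difference 0.19; 0 with an unadjusted p under 0.05; 12.0% of all genes called, 6.65% higher and 5.39% lower), and differences between such values carry no fold. The 2 genes above 10 steps were Krtap12-1, at 12, 23 and 10 in controls and 14, 8, 10 and 4 in P95H skin, and Krtap3-2, at 42, 47 and 29 in controls and 15, 13, 25 and 14 in P95H skin. Krtap3-2 was lower in every P95H library than in every control (difference -1.20, SE 0.68, adjusted p = 0.259), an arrangement 14% of all genes showed. In Krtap31-1 every P95H library lay above every control, as in 14.5% of all genes, but at 2 steps in each against 1 in each, which are not told apart. At 12 days Krtap3-2 stood at 53, 342, 37, 59 and 378 in controls and 27 and 51 in P95H skin (-1.53, adjusted p = 0.249). No member's P95H effect differed between 28 and 12 days (lowest adjusted p 0.610; 0.0108% of all genes called), although 10 were called on the deposited normalised counts. From 12 to 28 days in controls the median difference was -3.66, with 45 members at an unadjusted p under 0.05 and none called (lowest adjusted p 0.170; 0.00541% of all genes called). The filter favours this direction too, since 11 of the 47 passed only through the 12-day controls. In 13 members the 28-day controls lay below every 12-day control, as in 4.95% of all genes (5.75% in the opposite direction). Without control 3 at 12 days 14 were called, and on the deposited normalised counts 47 were, where the median over all genes itself moved by -0.82. The shares of all genes called in these alternative settings are not given here. Krtap8-1 stood at 14 to 1717 steps in controls at 12 days and at 2, 2 and 3 at 28 days, a difference of -5.81 that did not pass (adjusted p = 0.170).

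Sorted reporter-positive cells held few Krtap reads. In cells of the knockout set 18 of 57 members had any read, 179 reads in all 6 libraries together, and 39 were at 0. After DMBA/TPA 25 members had reads, 278 in all. The cells carried Krt14 at normalised counts of 346353 to 1141941 and Krt5 at 428706 to 707448, with Col1a1 of fibroblasts at 21.4 to 336 and Ptprc of immune cells at 0 to 63.2, in the knockout set. Krtap17-1 was the member that passed the filter in each table. It reached a mean of 10 only in the knockout group of the one and only in the P95H group of the other, so the filter favours a positive difference in both, and its tests are given as description. It had 9, 4 and 1 reads in controls and 6, 14 and 2 in knockout cells, overlapping groups whose normalised counts differed by 1.25 (SE 1.21, adjusted p = 0.599; 0.0394% of all genes called, 0.0282% higher and 0.0113% lower). After DMBA/TPA it had 1, 5 and 15 reads in controls and 8, 22 and 27 in heterozygous P95H cells, overlapping again (1.61, SE 0.63, adjusted p = 0.263; 0% of all genes called, and 2376 genes at an unadjusted p under 0.05). Other members with reads in the knockout set were Krtap3-2, with 7, 9 and 15 in controls and 9, 0 and 17 in knockout cells, Krtap11-1, with 7, 1 and 2 against 9, 0 and 6, and Krtap12-1, with 3, 6 and 4 against 0, 8 and 2. Knockout replicate 2, the library with 45930438 reads, held none of Krtap3-2 or Krtap11-1, and 0 reads allow up to 3. With so few Krtap reads no difference in Krtap genes between sorted groups was detectable, and intervals of this kind cover counting error only.

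Other genes of the hair follicle were counted in the same comparisons, from lists of textbook markers. At 10 days against control, 13.4% of all genes were called higher. Hair shaft keratins, the filament partners of these proteins, rose at 10 days in 14 of 15 tested (median 6.70), among them Krt32 (3.68, SE 0.62, adjusted p = 0.00487), Krt39 (5.11, SE 1.13, adjusted p = 0.0114) and Krt82 (7.27, SE 1.67, adjusted p = 0.0130), but not Krt84. Their summed level ran from 1112 to 51476 steps in controls and from 1016352 to 1324860 at 10 days, without overlap. At 4 days 2 of 15 fell (median -3.32), when 4.11% of all genes were called lower. At 12 days none passed (median -3.12), when 0.457% of all genes were called lower. Inner root sheath and companion layer genes rose in 15 of 15 at 10 days (median 6.12). Among them Krt71, a keratin of the inner root sheath, stood at 52949, 498 and 28330 steps in controls and 1283943, 1147298 and 1614769 at 10 days. Control 2 was low in these groups as well, and so was its Gprc5d, an orphan receptor of hair-forming cells, at 7 steps against 2499 and 1139. Of 14 transcription factor genes of the hair matrix and shaft, 13 rose at 10 days (median 1.88). Hoxc13, which drives hair keratin genes, stood at 510, 197 and 498 in controls against 2192, 2866 and 3215. Foxn1, the nude gene, stood at 1000, 488 and 997 against 2978, 3479 and 4124 (2.15, SE 0.39, limma adjusted p = 0.0063). In these genes control 2 was lower than the other 2 controls by a smaller factor than in Krtap genes.

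Some lists of markers of other cell types moved at the same times, and others moved little or in both directions. Melanocyte genes rose in 11 of 11 at 10 days (median 4.23), with the pigment enzyme Tyr at 62, 48 and 175 steps in controls and 1453, 1636 and 2677 at 10 days (4.51, SE 0.71, adjusted p = 0.00413), and their summed level ran from 2935 to 6386 in controls and 29628 to 43422 at 10 days. Of 12 skeletal muscle genes 10 fell at that time (median -1.24), with summed levels of 1168030 to 2522580 in controls and 605798 to 766911 at 10 days. Adipocyte genes fell in 3 of 10 at 10 days, when 11.9% of all genes were called lower and 13.4% higher. Of 10 epidermal keratinocyte markers 1 rose and 4 fell then (median -0.16). Of 9 hair follicle stem cell markers 2 rose and 3 fell (median 0.21), and of 10 sebaceous gland genes 2 rose (median -0.0043). At 4 days, when 7.16% of all genes were called higher, 8 of 8 fibroblast genes (median 1.38) and 5 of 8 immune genes (median 1.11) rose. Fibroblast levels ran from 1534425 to 3200001 against 357529 to 830278 in controls. Sebaceous gland genes rose in 6 of 9 in P95H skin at 12 days (median 1.17), where 3.94% of all genes were called higher. The part of these cell types in the Krtap values was not tested.

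The 10 genes without a Krtap symbol whose pattern over the 12 whole-skin libraries of the knockout set was most like the mean of the 56 had Pearson r of 0.995 to 0.998: Gm11938, Gm2431, RP23-346N11.6, Gm11559, Gm11568, Gm11567, Gm11571, Gm3238, Krt86 and Gm19668. Of these, 8 lay inside one of the 5 Krtap clusters, and the exceptions were Gm11571, at chr11:100052286-100085983, and the hair keratin gene Krt86 on chromosome 15. Gm11559, Gm11567 and Gm11568 share 50-base words with Krtap9-1, Gm11938 with Krtap2-4 and RP23-346N11.6 with Krtap5-1. Reads of these genes are not fully separable, and how far that bears on r was not tested. Krt86 stood at 6662, 67 and 5550 steps in controls, 32, 271 and 183 at 4 days, 160537, 137015 and 186681 at 10 days and 10, 1316 and 147 at 12 days, with the libraries in the same order as for Krtap8-1 within each group. The clusters held 65 further listed genes without a Krtap symbol, 41 with a mean of at least 10, 37 of them protein coding, and 40 of the 41 had an r above 0.9. Together these 41 had a mean of 181650 steps at 10 days against 926879 for the Krtap genes. Of the 56 Krtap genes themselves 55 had an r above 0.9 with the mean of the family, and Krtap20-2 had the lowest, at 0.876. The libraries of a group share one condition, so these are descriptions over 12 libraries in 4 groups.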

How the data were processed

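Per the labels' protocols, Trizol was used to extract RNA. The library kit was TruSeq Stranded Total RNA Gold for the knockout mice with their controls and a stranded kit with Ribo-Zero Plus depletion for the P95H set. The tools named per the submitters' processing notes are STAR, featureCounts and DESeq2, without version, role or build. The signal deposited in each table is a normalised count per gene, divided by the authors by 1 factor per library. In sorted cells whole reads were recovered for 100% of values (tolerance 0.0001). On those reads edgeR called 3 genes of the knockout set and 1 after DMBA/TPA, and DESeq2 called 1256 and 338. In whole skin the whole multiples (steps) were analysed in place of the deposited values, because the latter carry a further factor. They are not reads: low multiples of replicate 1 of the 28-day P95H group are rescaled.

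Genes with a mean of at least 10 were tested (19492 and 18486 in whole skin, 17744 and 14914 in sorted cells). Values were taken as log2(value + 1), and limma 3.58.1 (R 4.3.3, trend on) was fitted once per table with 1 coefficient per group, with two-sided tests adjusted by the Benjamini-Hochberg method over all genes tested and a threshold of 0.05. Called means past that threshold. The fit was tested on simulated data. edgeR 4.0.16 and DESeq2 1.42.0 served as alternatives, beside another pseudocount, other filters, equal totals, the deposited values, a replicate block and each library left out. Members named with values were the one with the highest mean of each subfamily in knockout-set skin, the 3 largest rises and falls of a comparison, and members called against the majority. Of each marker list up to 4 members with the smallest p and further examples were named. The genes most alike were the 10 with the highest Pearson r. Others were named after their values were seen. The members and lists were chosen with earlier results of these data known. Promoter sequences come from RefSeq (GRCm38.p6).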

Additional observations from a re-analysis of the deposited data

Results flagged for a closer look

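Single libraries stood apart from the rest of their group for 3 genes, all among the 12-day controls of the P95H set, by a gap to the next library beyond Dixon's critical value. Krtap1-5 stood at 2713 steps in replicate 2, and the next highest control had 713. Krtap20-2 stood at 185 in replicate 2, and the next had 10. Krtap12-1 stood at 87 in replicate 5, and the next had 36. In all, 29 groups of values were examined. Chance marks about 1 in 20 where values are normally distributed. These gaps were measured in steps, and not in log2(steps + 1) as in the tests, so that rate may not hold here.

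Knockout skin differed between 10 and 4 days in 56 of 56 tested members and between 12 and 10 days in 56 of 56, by the limma tests given in the report. The same controls serve all times and cancel in these differences. No control was taken at 4 days, so time and knockout effect cannot be told apart.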

How the results depend on the processing

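The counts of Krtap genes called were recomputed under each alternative. For whole skin, the shares of all genes called under the alternatives are not given here. The counts therefore show only how the calls depend on the setting. At 10 days against control the count of 51 became 8 without control 2, 24, 22 and 17 without knockout replicates 1, 2 and 3, and ran from 8 to 55 over single libraries left out; other settings gave 45 (replicate block) to 55. At 4 days the count of 0 became 1 with a pseudocount of 10, 1 on deposited normalised counts, 12 with edgeR and 0 to 31 with a library left out. At 12 days it was 0 to 1 with a library left out. Between 10 and 4 days it was 56 to 56, and between 12 and 10 days 55 to 56. The P95H call at 12 days was lost (0) with a pseudocount of 10, without a filter, with a minimum mean of 50, with only the groups compared and with edgeR, ran from 0 to 1 with a library left out, and became 18 on deposited normalised counts. At 28 days it was 1 with only the groups compared and 0 to 0 with a library left out. On deposited normalised counts 10 members differed in P95H effect between the 2 times (0 to 0 with a library left out), and 47 differed between control times (0 to 14). Those values shift the median over all genes by 0.26 at 10 days against control, -0.10 and 0.59 for P95H at 12 and 28 days, and -0.82 between control times. In sorted cells 0 were called in each setting, 0 to 0 with a library left out. The cause of these changes was not tested. Of the genes named as called, 7 of 26 at 10 days against control, 29 of 29 between 10 and 4 days, 26 of 27 between 12 and 10 days and 0 of 1 in P95H skin kept their call under every alternative. Whether replicate numbers pair the samples was not settled. Deviations of same-numbered libraries had correlations of -0.46 to 0.84 in knockout-set skin, against -0.67 to 0.58 for different numbers. In P95H-set skin they were -0.19 to 0.36 against -0.47 to 0.34. In sorted cells the same-numbered pairs lay above the others. They had 0.058 to 0.19 against -0.16 to -0.0053 in the knockout set, and 0.056 to 0.15 against -0.14 to 0.024 after DMBA/TPA. With the replicate block 45 members were called at 10 days, 1 in P95H skin at 12 days, 56 in each comparison between knockout times and 0 in the others. The small number of Krtap reads limits the sorted cells most, and the floor of 1 step limits folds of low genes in whole skin.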
